A study of Homo sapiens with 44 samples.

Results

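The Wnt feedback targets followed here are 10 genes chosen by name: AXIN2, NKD1, SP5, LEF1, DKK1, DKK4, NOTUM, RNF43, ZNRF3 and LGR5. They were found by symbol among the 60499 genes of the deposited count table, and all 10 passed the filter on low counts that left 22955 genes. RNA was sequenced from 44 culture wells of the established human embryonic stem cell line H1 on its way towards heart cells. Every well comes from this 1 line, so the spread between wells does not cover differences between lines or donors.

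The wells fall into 12 groups. Pluripotent cells were kept on the basement-membrane protein laminin LN-521 (n = 3). The wells of every other group were coated with both LN-521 and LN-221. Day 0 cells were in Nutristem medium (n = 3). Day 1 and day 3 cells were in RPMI 1640 with B27 lacking insulin and with CHIR99021, an inhibitor of the kinase GSK3 (n = 3 each). Day 5 cells had IWP2, an inhibitor of Wnt secretion added at day 3, in the same basal medium (n = 5). Day 7 and day 9 cells had that medium without either inhibitor (n = 5 each). Cells of day 11 (n = 5) and of days 14, 20, 30 and 90 (n = 3 each) were in RPMI 1640 with CTS B-27. No well was followed without CHIR99021 or without IWP2, so the inhibitors and the time in culture cannot be told apart. The change from Nutristem to RPMI 1640 with B27 lacking insulin came with CHIR99021 and cannot be told apart from it. The change to CTS B-27 between day 9 and day 11 likewise cannot be told apart from the time in culture.

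Wnt proteins bind Frizzled and LRP receptors and stop a complex of AXIN, APC and GSK3 from marking beta-catenin for breakdown. Beta-catenin then enters the nucleus and, with factors of the TCF and LEF family, switches on genes, several of which dampen the signal in turn. CHIR99021 acts below the receptors by blocking GSK3, whereas IWP2 blocks the acyltransferase PORCN that Wnt ligands need to leave the cell. In early embryos this pathway drives formation of the primitive streak and mesoderm, and its later inhibition favours heart muscle.

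Total estimated counts ran from 6937136 to 33498022 per library and the RNA integrity number from 7.4 to 10. CPM values here are edgeR's depth-scaled counts, with library sizes adjusted by TMM, and differences are log2 fold changes with a standard error (SE). Called means an adjusted p (Benjamini-Hochberg, edgeR's quasi-likelihood test) under 0.05 together with a rise or fall of at least 1 on the log2 scale. A floor of 3 counts was set for each library and lay between 0.0919 and 0.410 CPM. The primitive streak and early mesoderm markers were TBXT, MIXL1, EOMES and MESP1. They summed to 0.67 to 0.80 TPM at day 0 and 234.9 to 432 TPM at day 1. The sum was 48.7 to 105.07 TPM at day 3 and 0.93 to 1.66 TPM at day 5. TPM is the authors' value per transcript length. MESP1 ran against this sum, with 0.809, 1.16 and 0.841 CPM at day 1 and 16.41, 29.04 and 26.07 CPM at day 3. For TBXT, MIXL1 and EOMES every day 3 well lay below every day 1 well. Cardiomyocyte markers (TNNT2, MYH6, ACTN2, MYL7 and NKX2-5) summed to 14.1 to 20.3 TPM at day 0 and 1434 to 7066 TPM at day 9. Replicates 1 and 2 of day 11 stood apart from the other wells of that day by high endoderm and liver markers, and the tests on day 11, the correlations over group means and the AXIN2 and ZNRF3 means that include it are given with and without them. In bulk RNA, fewer cells of a type and less RNA per cell cannot be told apart.

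**Figure D1:**
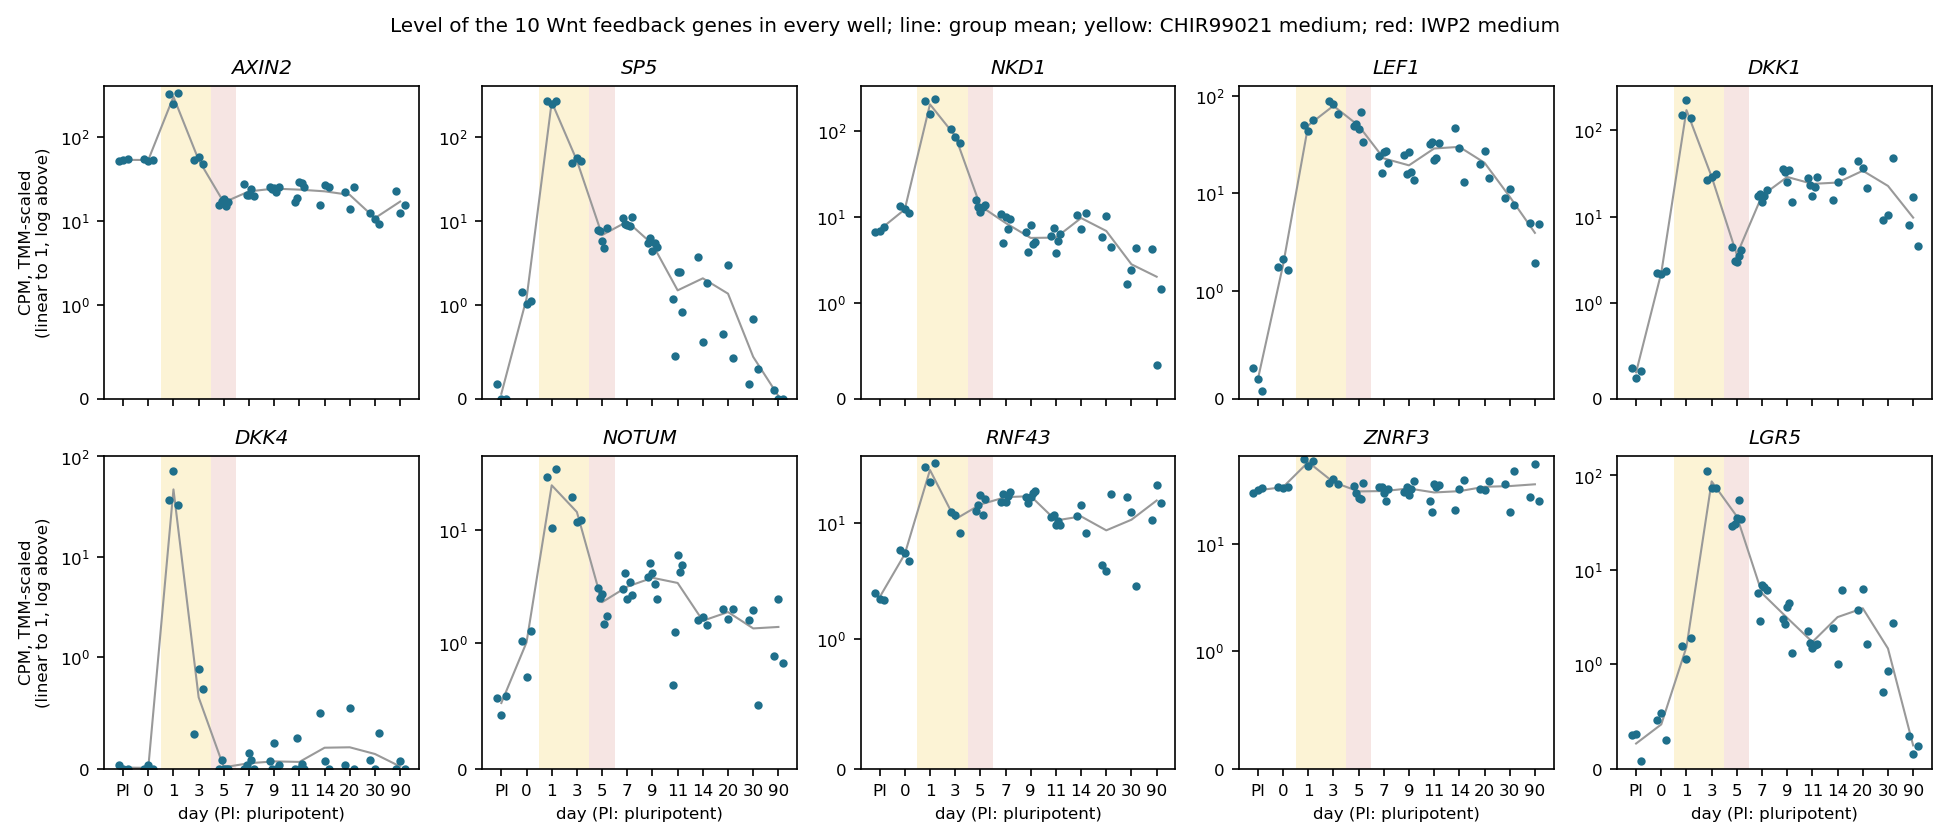
Level of each of the 10 genes in every well (points) with the group mean (line), as TMM-scaled CPM on an axis that is linear up to 1 and logarithmic above; the yellow band marks the CHIR99021 days and the red band the IWP2 day. AXIN2, NKD1, SP5, DKK1, DKK4, NOTUM, RNF43 and ZNRF3 have their highest group mean at day 1, and LEF1 and LGR5 at day 3.

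After 1 day of CHIR99021 all of the 10 genes were higher, and for each of them every day 1 well lay above every day 0 well. Such non-overlapping higher ranges were found for 25.9% of all genes. Of the 10, 9 were called higher and 0 lower, where 3.86% of all genes were called higher and 9.66% lower. The calls over all genes were 28.5% higher here, 49.4% with limma on log2(TPM + 1) and 38.8% with log2(TPM + 0.1), and 8 of the 10 were called higher by either limma fit. ZNRF3 was the exception, with an adjusted p of 0.020 from edgeR but a log2 fold change of 0.78. The median log2 fold change was 4.33 over the 10 genes and -0.03 over all genes.

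At day 3, still under CHIR99021, 6 of the 10 were called lower than at day 1 and 1 was called higher, where 6.80% of all genes were called lower and 11.0% higher. AXIN2, SP5, NKD1, DKK1, DKK4 and RNF43 fell and LGR5 rose. The 1 of 10 called higher lies near the 11.0% of all genes. At day 5, in IWP2, 7 were called lower than at day 3 and 0 higher, against 4.34% and 5.75% of all genes. That balance turned in the limma fits on TPM, since 57% of the calls over all genes were higher here but 27.8% with limma on log2(TPM + 1) and 31.5% with log2(TPM + 0.1), where 7 and 6 of the 10 were called lower. By edgeR, AXIN2, NKD1, SP5, DKK1, DKK4, NOTUM and LGR5 fell, while LEF1, RNF43 and ZNRF3 were not called. The 7 of limma on log2(TPM + 1) held LEF1 (-1.23, adjusted p = 0.033) in place of DKK4 (-0.67, under the fold required, adjusted p = 0.0047). The median log2 fold change of the 10 was -1.31 at the first of these steps (0.07 over all genes) and -2.16 at the second (-0.02 over all genes). Neighbouring steps share the wells of the day between them, so the values of each step are given side by side and no relation between steps is drawn.

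**Figure D2:**
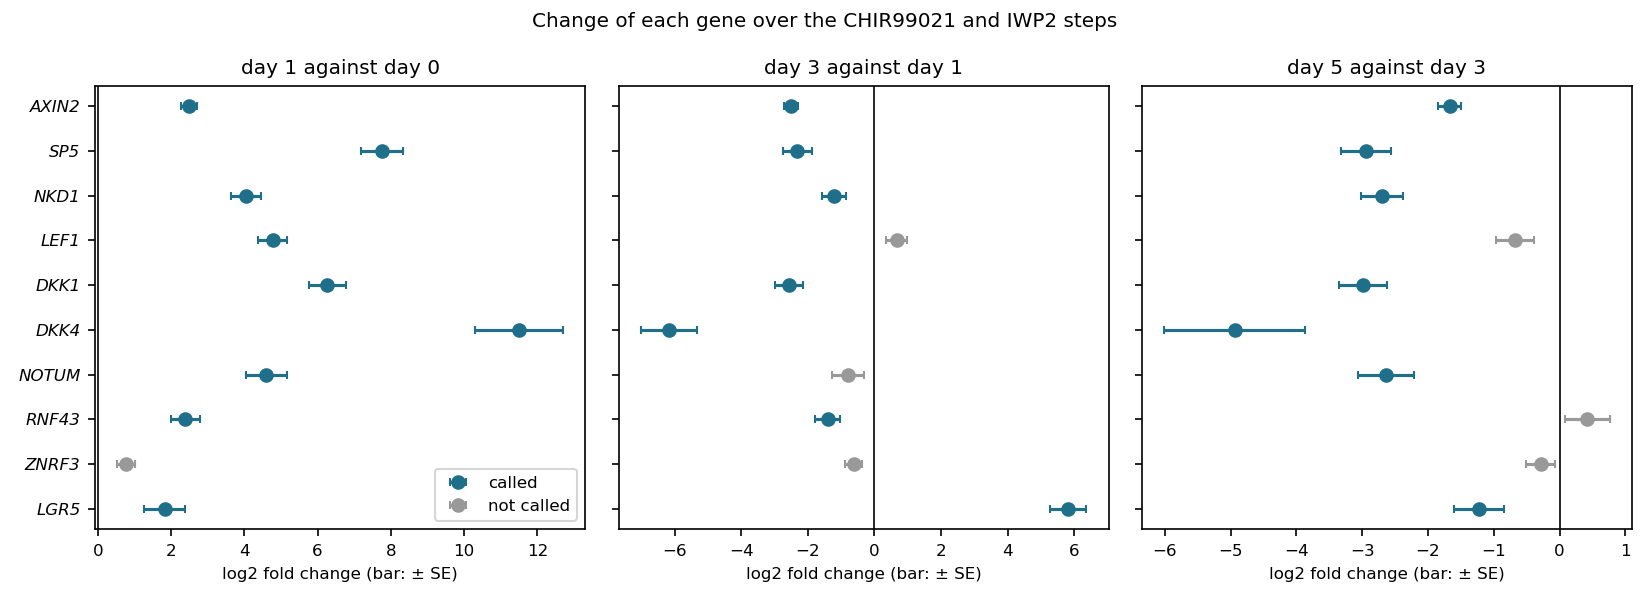
Log2 fold change of each gene with its SE (bars) over the steps from day 0 to day 1, day 1 to day 3 and day 3 to day 5; blue points were called and grey points were not. All 10 genes lie above 0 in the first step, LGR5 is the called rise of the second at 5.82, and RNF43 is the gene above 0 in the third at 0.42.

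The windows of RefSeq promoter sequence (GRCh38.p14, 250 bases before to 50 after the start of transcription) held 4 of the 10 genes, SP5, LEF1, DKK1 and RNF43. Those of AXIN2, NKD1, DKK4, NOTUM, ZNRF3 and LGR5 were not matched. A 6-base core read by TCF and LEF factors, CTTTGA or its reverse complement TCAAAG, was searched on both strands. Other 6-base forms of their core were not searched. It was found in the windows of SP5 and DKK1, and 12.9% of all 35116 windows of the same length hold it. SP5 and DKK1 are shown because they had the highest TPM of the 10 genes at day 1 and hold such a match. The 250 bases before each start are printed 5′ to 3′ on the coding strand, with the matches in capitals. The SP5 stretch is chr2:170715087-170715336 and the DKK1 stretch chr10:52314031-52314280, both on the plus strand.
SP5: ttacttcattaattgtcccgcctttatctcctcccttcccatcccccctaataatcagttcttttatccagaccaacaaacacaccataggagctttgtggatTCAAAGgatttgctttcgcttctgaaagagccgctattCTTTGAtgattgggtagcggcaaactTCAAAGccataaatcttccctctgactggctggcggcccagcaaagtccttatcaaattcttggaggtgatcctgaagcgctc
DKK1: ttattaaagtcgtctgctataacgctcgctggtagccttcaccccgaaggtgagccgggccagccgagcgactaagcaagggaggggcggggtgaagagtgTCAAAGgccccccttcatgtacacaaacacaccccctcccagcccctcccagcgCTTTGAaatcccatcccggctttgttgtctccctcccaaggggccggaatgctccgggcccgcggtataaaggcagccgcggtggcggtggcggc
In SP5 the matches begin 147, 109 and 83 bases before the start, and in DKK1 149 and 95 bases before it. The 7-base form CTTTGAT or ATCAAAG, which contains the 6-base core, was found in SP5 and in 2.62% of all windows. A match describes these letters and does not show that a factor was bound there.

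Among the inhibitors that act inside the cell, AXIN2 is a scaffold of the complex that breaks down beta-catenin. It lies on chromosome 17 (65528563 to 65561647, minus strand; hg38 coordinates of GENCODE release 29 here and below). AXIN2 stood at 55.0, 51.4 and 53.2 CPM in the day 0 wells and at 320.5, 243.5 and 336.8 CPM at day 1. The day 3 wells had 53.0, 58.5 and 48.3 CPM, and the day 5 wells 15.4, 17.3, 18.5, 15.3 and 17.0 CPM. Day 3 thus overlapped day 0, and every day 5 well lay below every well of the earlier days. AXIN2 rose 5.64-fold at day 1 (SE 0.21 on the log2 scale) and fell by log2 values of 2.49 ± 0.21 (SE) at day 3 and 1.67 ± 0.18 at day 5 (edgeR adjusted p = 4.6e-11, 1.8e-11 and 7.6e-09). Between day 3 and day 0 the log2 difference was 0.00 ± 0.20, and day 5 lay below day 0 by a called log2 fold change of -1.67 (adjusted p = 1.2e-09). At day 3, 7 of the 10 genes were still called higher than at day 0 and 0 lower, where 7.81% and 8.76% of all genes were called. Of those calls over all genes 47.1% were higher, against 66.9% and 60.9% with limma on log2(TPM + 1) and log2(TPM + 0.1). At day 5, 5 of the 10 were called higher than at day 0 (12.5% of all genes), and AXIN2 was the 1 called lower (12.2% of all genes). That 1 of 10 called lower lies near the share of all genes. The level of AXIN2 from day 7 to day 20 stayed between group means of 20.5 and 24.3 CPM, with ranges that overlap from each group to the next in order of level. Without day 11 replicates 1 and 2 the highest of these means was that of day 11, at 27.4 ± 2.02 CPM (SD, n = 3).

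AXIN1, the paralogue of AXIN2 with the same role, was at 59.9 ± 1.29 CPM at day 0 and 104 ± 2.02 CPM at day 1 (SD, n = 3 each). Its log2 fold change of 0.79 was under the fold required for a call (edgeR adjusted p = 0.0097).

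NKD1 binds the signalling protein dishevelled and restrains it. It lies on chromosome 16 (50548330 to 50649249, plus strand). NKD1 had 13.3, 12.3 and 11.0 CPM at day 0, 219, 157 and 231 CPM at day 1 and 104, 85.6 and 72.6 CPM at day 3. At day 5 the wells had 15.5, 13.1, 11.5, 13.2 and 13.6 CPM. The day 1, day 3 and day 5 ranges did not overlap one another, while day 5 overlapped day 0. The log2 fold changes were 4.05 ± 0.41 at day 1, -1.21 ± 0.36 at day 3 and -2.70 ± 0.32 at day 5 (edgeR adjusted p = 1.9e-09, 0.010 and 6.4e-08). Without day 3 replicate 3 the fall at day 3 was no longer called (-1.11, adjusted p = 0.055). A gene within NKD1 on the same strand, AC007608.4, had 197 to 269 counts at day 1 beside a median of 6503 for NKD1. Estimated counts of NKD1 carried decimals, the sign of shared reads, in 0 of the 44 libraries. NKD2, the paralogue of NKD1, had 6.13 ± 0.0744 CPM at day 0 and 6.97 ± 1.64 CPM at day 1 (SD, n = 3 each) and was not called at that step. NKD2 fell to 2.86 ± 0.622 CPM at day 3 (log2 fold change -1.29, edgeR adjusted p = 0.0081).

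Of the transcription factors, SP5 is a zinc-finger protein that binds at Wnt target genes and can repress them. It lies on chromosome 2 (170715351 to 170718078, plus strand). SP5 was at 0.161, 0 and 0 CPM in the pluripotent wells, at 1.44, 1.03 and 1.14 CPM at day 0 and at 271, 248.0 and 270.0 CPM at day 1. It had 49.1, 57.2 and 52.4 CPM at day 3 and 7.82, 7.58, 5.82, 4.83 and 8.29 CPM at day 5. No 2 of these 5 groups overlapped. The log2 fold changes were 7.76 ± 0.58 at day 1, -2.31 ± 0.44 at day 3 and -2.94 ± 0.38 at day 5 (edgeR adjusted p = 1.8e-12, 8.9e-05 and 3.3e-07). Day 5 remained above day 0 by 2.51 ± 0.46 (adjusted p = 3e-05). SP8, a paralogue of SP5, rose from 2.43 ± 0.43 CPM at day 0 to 18.6 ± 2.25 CPM at day 1 (SD, n = 3 each; log2 fold change 2.94, edgeR adjusted p = 0.0026).

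LEF1 is a DNA-binding partner of beta-catenin and lies on chromosome 4 (108047545 to 108168956, minus strand). LEF1 had 1.75, 2.13 and 1.62 CPM at day 0, 50.2, 43.5 and 56.6 CPM at day 1 and 90.2, 83.3 and 65.2 CPM at day 3. The day 5 wells had 49.8, 51.7, 45.5, 68.2 and 33.4 CPM. Day 1 lay wholly above day 0, day 3 wholly above day 1, and the day 5 wells overlapped both day 1 and day 3. LEF1 rose by 4.77 ± 0.39 at day 1 (edgeR adjusted p = 1.2e-11), while the log2 differences of 0.67 ± 0.32 at day 3 and -0.68 ± 0.28 at day 5 were not called (adjusted p = 0.12 and 0.096). On the log2(TPM + 1) scale with limma the day 5 step was called (-1.23, adjusted p = 0.033). At day 5 LEF1 was still 4.76 ± 0.37 above day 0 (adjusted p = 6.2e-13).

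The paralogues of LEF1 did not all move with it. TCF7 rose from 3.87 ± 0.227 CPM at day 0 to 32.1 ± 1.53 CPM at day 1 (SD, n = 3 each; edgeR adjusted p = 1.6e-10). TCF7L1, best known as a repressor of Wnt targets in pluripotent cells, fell from 15.3 ± 1.02 to 2.21 ± 0.183 CPM over the same step (log2 fold change -2.79, edgeR adjusted p = 5.4e-08). TCF7L2 fell from 21.0 ± 4.11 to 3.88 ± 0.227 CPM (log2 fold change -2.43, edgeR adjusted p = 1.9e-05). At day 3 both were called higher again, at 7.91 ± 1.05 and 18.7 ± 2.95 CPM, while TCF7 fell to 14.9 ± 2.46 CPM.

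Of the secreted antagonists, DKK1 binds the co-receptors LRP5 and LRP6 and keeps Wnt ligands from using them. It lies on chromosome 10 (52314296 to 52318042, plus strand). DKK1 had 0.321, 0.214 and 0.292 CPM in the pluripotent wells, 2.21, 2.16 and 2.31 CPM at day 0 and 149.6, 224 and 139 CPM at day 1. It then had 26.6, 28.9 and 31.2 CPM at day 3 and 4.41, 3.07, 3.00, 3.48 and 4.09 CPM at day 5. These 5 groups did not overlap one another. DKK1 rose by 6.26 ± 0.50 at day 1 and fell by 2.57 ± 0.42 at day 3 and by 3.00 ± 0.36 at day 5 (edgeR adjusted p = 1.1e-11, 9.3e-06 and 1e-07). At day 5 it was 0.70 ± 0.40 above day 0 on the log2 scale, which was not called (adjusted p = 0.17).

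DKK1 was the 1 gene of the 10 called higher at day 7, in medium without IWP2. The day 7 wells had 17.2, 18.3, 14.7, 17.1 and 20.2 CPM and the day 9 wells 35.8, 32.9, 25.3, 35.0 and 14.8 CPM. For DKK1 every day 7 well lay above every day 5 well. AXIN2 (log2 difference 0.43), SP5 (0.53) and NKD1 (-0.65) were not called at this step. The rise of DKK1 from day 5 to day 7 was 2.27 ± 0.33 (edgeR adjusted p = 6.3e-06) and was called under each of the 19 alternatives run for it. The further difference of 0.72 ± 0.31 at day 9 was not called (adjusted p = 0.31). Over the day 5 to day 7 step 1 of the 10 genes was called higher and 2 lower (LEF1 and LGR5), where 2.74% and 0.906% of all genes were called. Calls over all genes were 75.2% higher at this step and 63.5% higher in both limma fits. At day 9 DKK1 differed from day 3 by a log2 value of -0.01 ± 0.36, whereas 7 other members were called lower than at day 3, where 8.88% of all genes were called lower and 12.3% higher. Of the calls over all genes 58.2% were higher here, but 15.9% of 3781 calls with limma on log2(TPM + 1) and 19.2% of 6317 with log2(TPM + 0.1). DKK4, 1 of the 7, was no longer called with the lane as a covariate (-2.51, adjusted p = 0.050), with DESeq2 (-3.16, adjusted p = 0.086) or with limma on log2(TPM + 1) (-0.63, adjusted p = 0.0028). Summed cardiomyocyte markers rose over the same days, from 235.4 to 537 TPM at day 5 to 1619 to 3540 TPM at day 7, and their part in the DKK1 values was not tested.

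DKK4 is a second antagonist of the same family, on chromosome 8 (42374068 to 42377232, minus strand). DKK4 was at 0, 0.0333 and 0 CPM at day 0, at 36.6, 71.4 and 33.1 CPM at day 1 and at 0.318, 0.894 and 0.717 CPM at day 3. At day 5 it had 0.0798 CPM in replicate 2 and 0 in the other 4 wells. Day 1 was thus the sampled day with DKK4 well above the floor in every well. DKK4 fell by 6.18 ± 0.84 at day 3 (edgeR adjusted p = 3.9e-07), and day 5 was at least 5.30-fold lower than day 3, since all day 5 wells were at or under the floor of 3 counts per library. Against day 0, also under the floor, day 3 was at least 6.34-fold higher (called, edgeR adjusted p = 0.0019). With limma on log2(TPM + 1) this log2 difference was 0.665, under the fold required (adjusted p = 0.0084). From day 7 to day 90 the highest well of DKK4 had 0.547 CPM, and 3 counts in that shallow library make 0.410 CPM.

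The other DKK genes took different courses. DKK2 was called higher at day 1, at 1.35 ± 1.22 CPM against 0.281 ± 0.0801 CPM at day 0 (SD, n = 3 each; edgeR adjusted p = 0.043). DKK3 fell from 31.6 ± 2.77 CPM at day 0 to 8.14 ± 1.79 CPM at day 1 (log2 fold change -1.96, edgeR adjusted p = 3.9e-06). DKK3 was called higher at day 3, at 40.1 ± 10.5 CPM, and lower at day 5, at 16.2 ± 2.46 CPM.

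NOTUM is a secreted enzyme that removes the lipid Wnt ligands need for receptor binding. It lies on chromosome 17 (81952507 to 81961840, minus strand). NOTUM had 1.04, 0.732 and 1.28 CPM at day 0, 29.1, 10.3 and 34.7 CPM at day 1 and 19.3, 11.6 and 12.2 CPM at day 3. The day 5 wells had 3.06, 2.51, 2.70, 1.48 and 1.75 CPM. Day 1 and day 3 overlapped through day 1 replicate 2, and all wells of both lay above day 0 and day 5. NOTUM rose by 4.60 ± 0.56 at day 1 (edgeR adjusted p = 9.4e-08), was not called at day 3 (-0.78 ± 0.48, adjusted p = 0.23) and fell by 2.64 ± 0.43 at day 5 (adjusted p = 1.8e-05). At day 5 it was called 1.17 ± 0.48 above day 0 (adjusted p = 0.047). That call ended in 10 of the alternatives, among them leaving out any 1 of the day 0 wells (1.02 to 1.42, adjusted p = 0.057 to 0.17).

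At the cell surface, RNF43 and ZNRF3 are related ubiquitin ligases that remove Frizzled receptors. RNF43 lies on chromosome 17 (58352500 to 58417595, minus strand). RNF43 had 2.49, 2.21 and 2.19 CPM in pluripotent wells, 5.87, 5.52 and 4.73 CPM at day 0, 30.0, 22.4 and 32.3 CPM at day 1 and 12.4, 11.6 and 8.08 CPM at day 3. At day 5 it had 12.7, 14.2, 17.2, 11.7 and 15.8 CPM. The day 1 wells were the highest, and the day 5 wells overlapped day 3 but lay wholly above day 0. RNF43 rose by 2.39 ± 0.39 at day 1 (edgeR adjusted p = 2e-05), fell by 1.40 ± 0.38 at day 3 (adjusted p = 0.0045) and was not called at day 5 (0.42 ± 0.34, adjusted p = 0.45). At day 5 it was 1.41 ± 0.36 above day 0 (adjusted p = 0.0016). Its group means of 14.3 to 16.9 CPM from day 5 to day 9 were 50.6 to 59.7% of the day 1 mean, where SP5 had 2.03 to 3.78% and AXIN2 5.56 to 8.10%. SUPT4H1 overlaps RNF43 on the same strand, with 1140 to 1291 counts at day 0 and 1559 to 1986 at day 1 beside medians of 166 and 890 for RNF43. RNF43 counts carried decimals in 1 of the 44 libraries. On the log2(TPM + 1) scale with limma the fall of RNF43 at day 3 was -0.96 and under the fold required (adjusted p = 0.021), and on log2(TPM + 0.1) it was -1.26 and not called (adjusted p = 0.074).

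ZNRF3 lies on chromosome 22 (28883592 to 29057487, plus strand). ZNRF3 had 34.5, 33.7 and 34.6 CPM at day 0, 63.0, 53.9 and 59.6 CPM at day 1, 37.4, 40.7 and 36.5 CPM at day 3 and 34.9, 30.1, 27.1, 26.7 and 37.4 CPM at day 5. The day 1 wells lay above all others of these days. The log2 differences were 0.78 ± 0.25, -0.62 ± 0.25 and -0.29 ± 0.22 for the successive steps (edgeR adjusted p = 0.020, 0.055 and 0.41), and none was called. ZNRF3 counts carried decimals in all 44 libraries, which means that reads were shared with other features. Apart from day 1, its group means over all 11 other groups ran from 30.5 to 38.2 CPM, and from 31.2 to 38.2 CPM without day 11 replicates 1 and 2.

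LGR5 is a receptor for R-spondins, proteins that draw RNF43 and ZNRF3 away from Frizzled and so raise the Wnt signal. It lies on chromosome 12 (71439770 to 71586310, plus strand). LGR5 had 0.470, 0.532 and 0.276 CPM at day 0, 1.55, 1.12 and 1.90 CPM at day 1, and 112, 73.9 and 73.4 CPM at day 3. The day 5 wells had 28.8, 30.5, 35.8, 54.6 and 34.4 CPM and the day 7 wells 5.65, 2.87, 6.97, 6.60 and 6.13 CPM. None of these groups overlapped another. LGR5 rose by 1.82 ± 0.55 at day 1 and by 5.82 ± 0.55 at day 3 and fell by 1.23 ± 0.38 at day 5 and by 2.70 ± 0.36 at day 7 (edgeR adjusted p = 0.014, 1.3e-10, 0.020 and 1.2e-06). Its day 1 mean was 1.76% of its day 3 mean, where the day 1 mean of LEF1 was 63.0% of its own. The day 1 call ended without day 0 replicate 3 (1.65, adjusted p = 0.060) and under limma on log2(TPM + 1) (0.23, adjusted p = 0.83) and log2(TPM + 0.1) (1.03, adjusted p = 0.36). The day 5 call ended without day 3 replicate 1 (-0.99, adjusted p = 0.15), without day 5 replicate 1 (-1.15, adjusted p = 0.050) and under limma on log2(TPM + 0.1) (-1.56, adjusted p = 0.055).

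LGR4, the paralogue of LGR5, took another course. It fell from 205 ± 12.6 CPM at day 0 to 52.0 ± 7.29 CPM at day 1 (SD, n = 3 each; log2 fold change -1.98, edgeR adjusted p = 6.8e-10). LGR4 was called higher at day 3 (306 ± 40.9 CPM, n = 3) and again at day 5 (833 ± 221 CPM, n = 5), the step at which LGR5 fell. LGR6 was at 0.917 ± 0.0863 CPM at day 1 and was not called at any of the 3 steps.

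**Figure D3:**
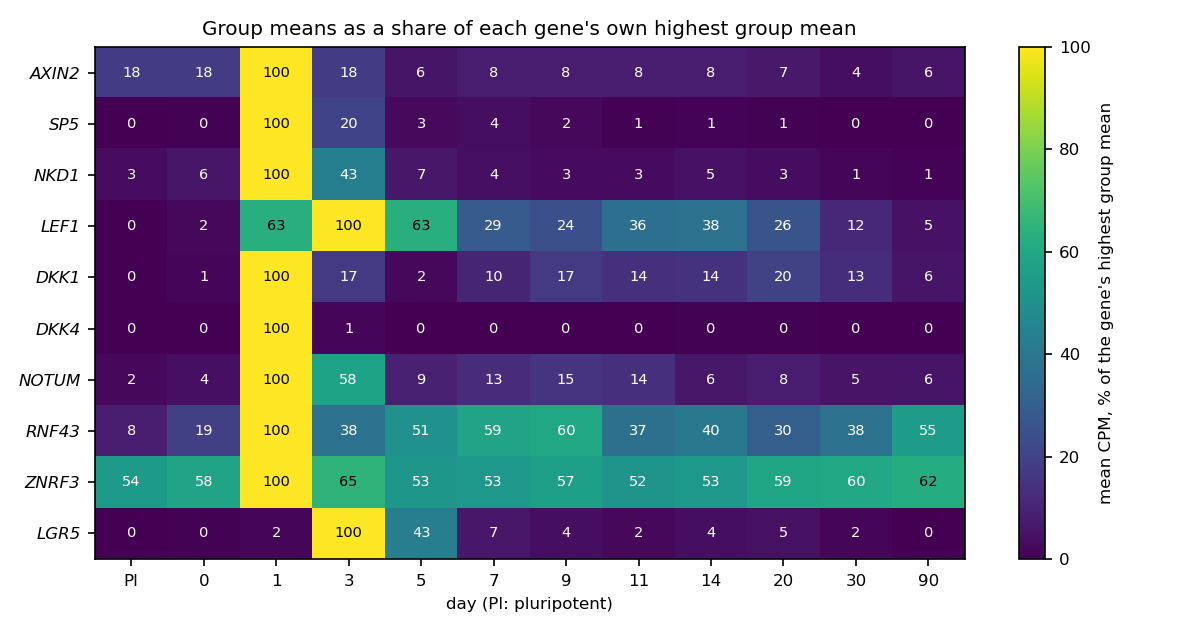
Mean CPM of each group as a percentage of the gene's own highest group mean; rows are the 10 genes, columns the 12 groups, and each cell prints the rounded percentage. AXIN2, NKD1, SP5, DKK4 and NOTUM print 9% or less of their peak at day 5, DKK1 2%, and LEF1, RNF43, ZNRF3 and LGR5 43% or more.

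Levels between genes can be compared per transcript length. At day 1 the mean TPM ran from 120 ± 9.20 for SP5 and 114 ± 27.5 for DKK1 through 74.9 ± 11.2 for AXIN2, 41.8 ± 19.1 for DKK4, 21.5 ± 3.29 for NKD1 and 17.4 ± 1.46 for LEF1 (SD, n = 3). NOTUM had 8.12 ± 4.01 TPM, ZNRF3 7.85 ± 0.814, RNF43 4.32 ± 0.730 and LGR5 0.253 ± 0.0833 (SD, n = 3). At day 3 LEF1 had the highest level of the 10 at 32.8 ± 2.14 TPM, and LGR5 had 15.5 ± 3.07 TPM (SD, n = 3). TPM moved against the TMM-scaled counts over the whole table. Over 5029 well-expressed genes (mean TPM 10 or more), the median log2 change by TPM minus that by counts was 0.17 from day 0 to day 1, 0.11 for the step to day 3 and -0.30 for the step to day 5. It was -0.55 between day 3 and day 9, and -0.59 between day 9 and day 90. Over all 15 comparisons it ran from -0.87 (day 30 to day 90) to 0.53 (day 11 to day 14).

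The 3 day 1 wells did not order the genes alike. Replicate 2 was the lowest of the wells for AXIN2, NKD1, SP5, LEF1, NOTUM, RNF43, ZNRF3 and LGR5 and the highest for DKK1 and DKK4. NOTUM had 10.3 CPM in replicate 2 and 29.1 and 34.7 CPM in the others, while DKK4 had 71.4 CPM against 36.6 and 33.1 CPM. TBXT was also highest in replicate 2, at 369 CPM against 292 and 272 CPM. MIXL1 had 466 CPM there against 272 and 200.4 CPM. With 3 wells this order was not tested. Leaving out any 1 well of day 0 or day 1 left 8 or 9 of the 10 genes called.

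**Figure D4:**
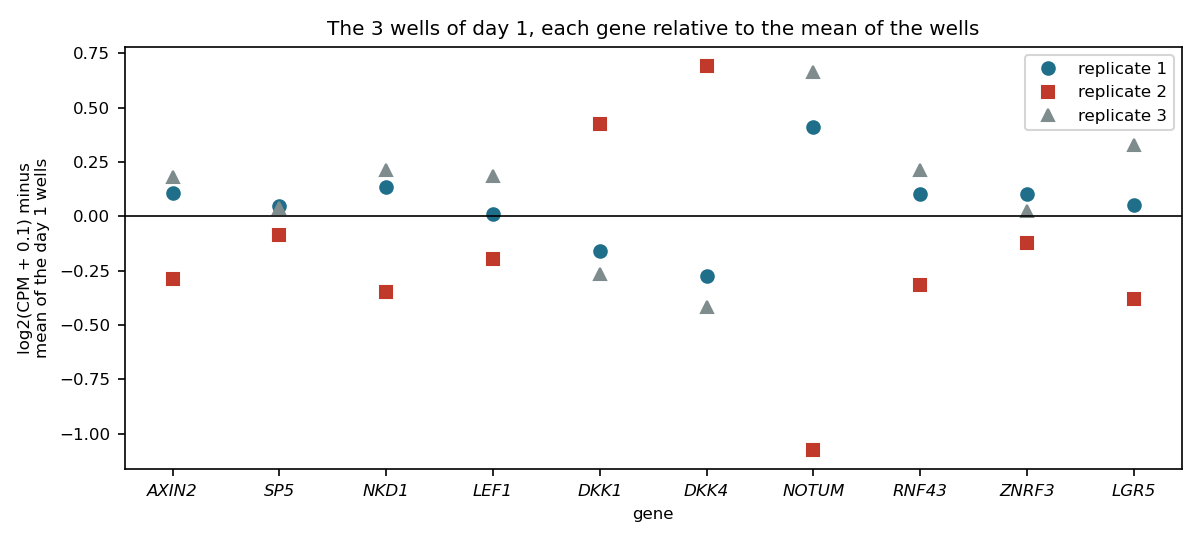
Deviation of each day 1 well from the mean of the 3 day 1 wells, on the log2(CPM + 0.1) scale, for each of the 10 genes; the marker shape gives the replicate. Replicate 2 lies below the mean of the wells for 8 genes and above it for DKK1 and DKK4.

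Before CHIR99021, day 0 cells already differed from pluripotent cells in 3 of the 10 genes. SP5 (4.52 ± 0.84), LEF1 (3.34 ± 0.49) and DKK1 (3.01 ± 0.57) were called higher at day 0 (edgeR adjusted p = 0.00091, 5.3e-05 and 0.0011), and 0 were called lower, where 2.73% and 0.183% of all genes were called. Of the 669 calls over all genes 93.7% were higher, against 71.1% of 45 with limma on log2(TPM + 1). LEF1 had 0.281, 0.184 and 0.0729 CPM in the pluripotent wells against 1.75, 2.13 and 1.62 CPM at day 0. The pluripotent wells lay below every day 0 well for all 3 genes. AXIN2 had 52.5, 52.6 and 55.3 CPM in pluripotent wells, overlapping day 0, with a log2 difference of -0.01 ± 0.20. The levels of SP5, LEF1 and DKK1 were at most 2.31 CPM in any day 0 well. With limma on log2(TPM + 1), where such low levels weigh little, 0 of the 10 were called and with log2(TPM + 0.1) 1 was, DKK1. The groups differ in laminin coating and in confluence, which cannot be told apart.

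After day 7 the genes changed less from one sampled day to the next. Between day 7 and day 9, 0 of the 10 were called by edgeR (3 at an unadjusted p under 0.05, and 0 in every alternative run), where 1.28% of all genes were called. These calls were 79.5% higher, against 91.2% of 68 calls with limma on log2(TPM + 0.1). Between day 9 and day 11, SP5 was called lower (-1.82 ± 0.37, edgeR adjusted p = 0.0037), where 0.396% of all genes were called higher and 1.24% lower. SP5 had 5.46, 6.37, 4.44, 5.47 and 4.98 CPM at day 9 and 1.19, 0.461, 2.48, 2.49 and 0.932 CPM at day 11. The ranges did not overlap. Neither limma fit on TPM called it. Those fits called 13 and 12 of all genes, 61.5% and 66.7% of them higher, against 24.3% of 375 in the edgeR fit.

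2 of the 5 day 11 wells stood apart from the other 3. Endoderm and liver markers (SOX17, FOXA2, TTR, AFP and ALB) summed to 4126 and 7794 CPM in replicates 1 and 2 and to 120.2 to 139 CPM in the others. The 5 cardiomyocyte markers summed to 7230 and 4681 CPM in those 2 wells and to 17422 to 18600.5 CPM in the others. Proliferation markers summed to 460 and 558 CPM in the 2 wells and to 127 to 159 CPM in the others. The 2 wells also had the lowest RNA integrity numbers of the day, 8.6 and 8 against 9.2 to 9.5, and the fewest counts, 18014203 and 19060126 against 23631168 to 31323325. NOTUM had 0.668 and 1.25 CPM in the 2 wells and 5.99, 4.23 and 4.87 CPM in the other 3. AXIN2 had 17.1 and 19.0 CPM against 29, 28 and 25.1 CPM, and ZNRF3 25.5 and 20.0 CPM against 36.5, 34.7 and 36.0 CPM. Without the 2 wells SP5 was still called lower than at day 9 (-1.45, edgeR adjusted p = 0.023). The part of these markers, of RNA quality and of depth in these values was not tested.

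Between day 11 and day 14, 0 of the 10 genes were called by edgeR (2 at an unadjusted p under 0.05), where 0.697% of all genes were called. These calls were 69.4% higher, against 92% of 25 and 93.3% of 15 in the limma fits. NOTUM had 1.61, 1.69 and 1.44 CPM at day 14 (log2 difference -1.11 ± 0.48, edgeR adjusted p = 0.21). Without day 11 replicates 1 and 2 it was called lower at day 14 (-1.64, adjusted p = 0.0058). Without those wells the count over all genes went from 160 to 2371.

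Between day 14 and day 20, 0 of the 10 were called by edgeR, and 0 had an unadjusted p under 0.05, where 0.0479% of all genes were called. All 11 of these calls were higher, against 84.6% of 13 with RLE scaling and 66.7% of 9 with limma on log2(TPM + 0.1). RNF43 had 4.34 and 3.83 CPM in day 20 replicates 1 and 2 and 17.6 CPM in replicate 3. DKK1 went the other way, with 43.8 and 36.8 CPM in replicates 1 and 2 and 21.3 CPM in replicate 3. Replicate 3 had the highest sum of endoderm and liver markers of the 3 (3690.4 CPM against 1635 and 886 CPM). Its proliferation markers summed to 659 CPM against 114 and 113 CPM, and its fibroblast and smooth muscle markers to 1560 CPM against 8312 and 2572 CPM. The part of these markers was not tested. Without it RNF43 was called lower at day 20 than at day 14 (-1.53, edgeR adjusted p = 0.034) and higher at day 30 than at day 20 (1.43, adjusted p = 0.020).

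Between day 20 and day 30, 0 of the 10 were called by edgeR, with 5 at an unadjusted p under 0.05, where 2.02% of all genes were called. These calls were 37.6% higher, against 64.2% of 67 with limma on log2(TPM + 1). AXIN2 was at 22.0, 14.0 and 25.5 CPM at day 20 and 12.6, 10.6 and 9.31 CPM at day 30. The groups did not overlap, and the log2 difference of -0.93 ± 0.21 had an adjusted p of 0.0088 but was under the fold required. LEF1 stood at 20.2, 27.5 and 14.3 CPM and then at 8.96, 11.1 and 7.69 CPM, without overlap (-1.15 ± 0.34, edgeR adjusted p = 0.052). DESeq2 called LEF1 and NKD1 lower.

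Day 30 replicate 3 differed from the other 2 wells in several of the genes. DKK1 had 48.2 CPM there and 9.20 and 10.5 CPM in the others. RNF43 had 2.87 CPM against 16.5 and 12.4 CPM, and LGR5 2.73 CPM against 0.733 and 0.937 CPM. Fibroblast and smooth muscle markers (COL1A1, COL3A1, DCN, PDGFRB and MYH11) summed to 5820 CPM in replicate 3 and to 3264 and 2382 CPM in the others. Its endoderm and liver markers summed to 263 CPM against 30.7 and 15.5 CPM, and the part of either list was not tested. The well with the most endoderm and liver markers had the highest DKK1 and the lowest RNF43 at day 30, and the reverse at day 20. Cardiomyocyte markers summed to 6294 CPM in day 30 replicate 3 against 10256 and 11079 CPM in the others. In day 20 replicate 3 they summed to 13748 CPM against 9141 and 9703 CPM. The fibroblast and smooth muscle sum was the highest of its day in day 30 replicate 3 and the lowest in day 20 replicate 3. The part of any of these lists was not tested. Leaving out day 30 replicate 3 gave 3 of the 10 genes called lower at day 30 than at day 20. They were NKD1 (-1.66, edgeR adjusted p = 0.028), DKK1 (-1.73, adjusted p = 0.0045) and LGR5 (-2.10, adjusted p = 0.026). Over all genes 3.61% were called in that fit, 35.2% of them higher.

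**Figure D5:**
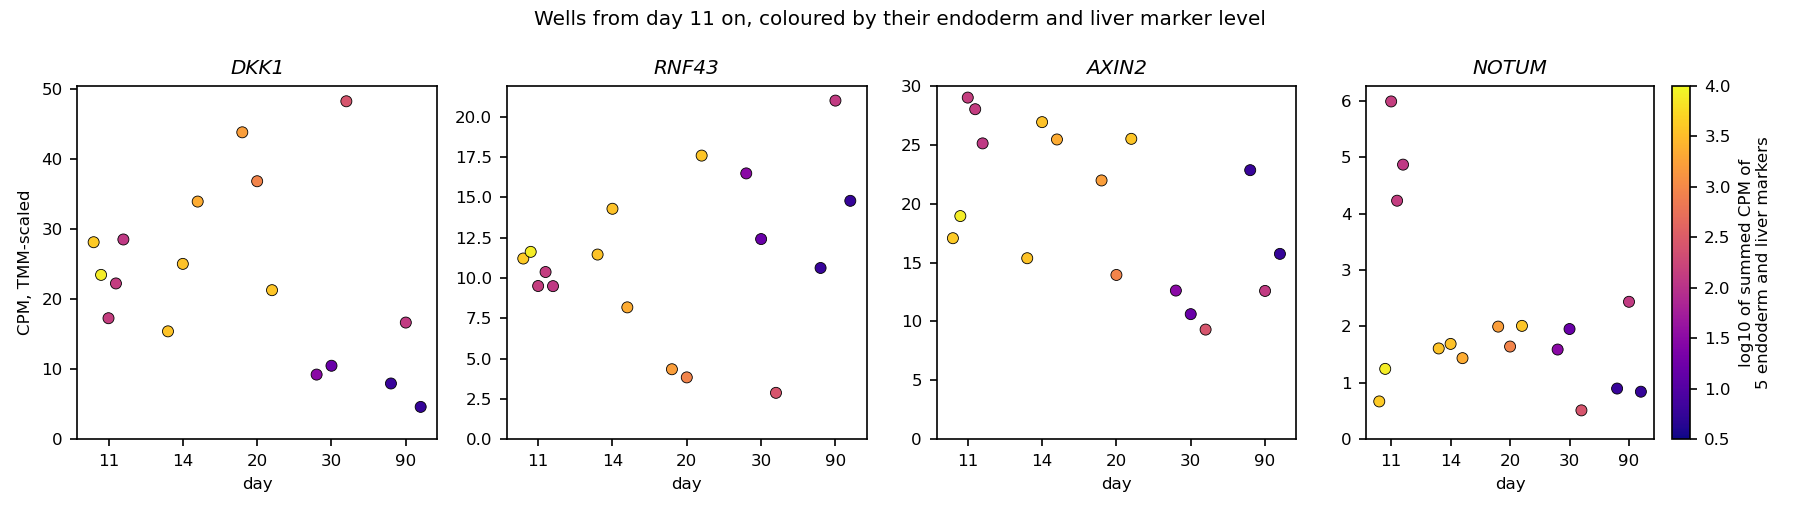
CPM of DKK1, RNF43, AXIN2 and NOTUM in each well from day 11 to day 90; the colour gives the log10 of the summed CPM of the 5 endoderm and liver markers in the same well. In the day 20 and day 30 wells DKK1 and RNF43 lie at opposite ends, with 48.2 CPM of DKK1 and 2.87 CPM of RNF43 in day 30 replicate 3, while day 90 replicate 4 is the highest of its day for both, at 16.6 and 21.0 CPM.

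By day 90, LEF1 and LGR5 were called lower than at day 30 and 0 of the 10 higher, where 2.44% and 2.65% of all genes were called. That near-even balance, 52.1% of the calls higher, was 5.68% of 1337 calls with limma on log2(TPM + 1) and 3.58% of 3550 with log2(TPM + 0.1). LEF1 had 4.98, 1.95 and 4.87 CPM at day 90 (-1.21 ± 0.35, edgeR adjusted p = 0.024) and LGR5 0.314, 0.139 and 0.224 CPM (-2.64 ± 0.67, adjusted p = 0.010). Neither gene's day 90 wells overlapped day 30. The day 90 values of LGR5 rest on 2 to 7 counts per well, near the floor of 3. A fit on the libraries of these 2 groups alone called 0 of the 10, but also only 2 of 17049 genes in all. The LGR5 call ended without day 30 replicate 3 (-1.78, adjusted p = 0.18). It also ended under limma on log2(TPM + 1) (-0.265, adjusted p = 0.51) and log2(TPM + 0.1) (-1.33, adjusted p = 0.091). The LEF1 call ended without day 30 replicate 10 (-1.04, adjusted p = 0.064) or day 90 replicate 4 (-0.88, adjusted p = 0.14). It also ended with the lane as a covariate (-1.15, edgeR adjusted p = 0.095) and under limma on log2(TPM + 1) (-1.25, adjusted p = 0.053). DKK1, not called here, was called lower in 6 of 14 alternatives.

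Set against day 9, 6 of the 10 were called lower at day 90 and 0 higher, where 23.9% of all genes were called in one direction or the other. Calls over all genes were 49.9% higher, against 19.8% and 19.5% with limma on log2(TPM + 1) and log2(TPM + 0.1). The 6 were SP5, NKD1, LEF1, DKK1, NOTUM and LGR5. SP5 was at or under the floor of 3 counts in every day 90 library, so its day 90 level was at least 31.4-fold lower than at day 9 and at least 2.63-fold lower than at day 30. LEF1 (-2.29 ± 0.33, edgeR adjusted p = 6.5e-07), DKK1 (-1.57 ± 0.39, adjusted p = 0.0012) and LGR5 (-3.69 ± 0.61, adjusted p = 5.9e-06) were the next by adjusted p. The NKD1 call ended without day 90 replicate 4 (-0.97), and the NOTUM call without day 90 replicate 2 (adjusted p = 0.088) or 5 (adjusted p = 0.092). A fit on the compared groups alone also ended the NKD1 call (-1.42, edgeR adjusted p = 0.082). Limma on log2(TPM + 1) ended the calls of NKD1, NOTUM and LGR5 (-0.42, -0.54 and -0.39, adjusted p = 0.063, 0.081 and 0.27). RNF43 had 10.6, 21.0 and 14.8 CPM at day 90 and overlapped its day 9 wells (-0.13 ± 0.34, adjusted p = 0.80). ZNRF3 had 27.7, 55.9 and 25.6 CPM (0.13 ± 0.22, adjusted p = 0.69). AXIN2 had 22.9, 12.6 and 15.7 CPM and a log2 difference of -0.51 ± 0.19, under the fold required (adjusted p = 0.031).

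The day 1 libraries lay in 3 of the 5 sequencing lanes, and SP5 and DKK4 were so high at day 1 that their low later levels were compared between lanes. From day 5 on, the median SP5 level was 3.01 CPM in the 19 libraries of those 3 lanes and 4.44 CPM in the 13 libraries of the other 2. DKK4 had 0 counts in 6 of the 19 and in 10 of the 13 libraries. The 2 sets of lanes also differ in day. All day 14 and day 20 libraries lay in the lanes with day 1 libraries, and all day 90 libraries in the others. In the 19 libraries, late SP5 counts came to 0.0518 to 3.46% (median 0.492%) of the day 1 count in the same lane, and DKK4 counts to 0 to 0.658%. The part of reads from neighbouring libraries in the low DKK4 counts was not tested.

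Over the 12 group means of log2(CPM + 1), the 45 pairs of the 10 genes had Pearson correlations from -0.07 (AXIN2 and LGR5) to 0.95 (SP5 and NOTUM). Without day 11 replicates 1 and 2 they ran from -0.095 to 0.945. These are descriptions over 12 groups that share libraries' depth and scaling. Among 10378 protein-coding genes outside the 10 with a mean TPM of at least 5 in their highest group, the profiles most like AXIN2 were those of CHFR (r = 0.96), CALCR (0.96), OAT (0.96), NKX1-2 (0.96) and FBXW9 (0.95). NKX1-2, a homeobox gene, had 9.34 CPM at day 0, 249.5 CPM at day 1, 13.5 CPM at day 3 and 1.04 CPM at day 5. The profiles most like the mean of the 10 genes were those of EVX1 (0.97), SLC39A8 (0.96), FZD10 (0.95), KCNG1 (0.95) and BLOC1S6 (0.93). EVX1, a homeobox gene of the primitive streak, had 0.0342 CPM at day 0, 84.2 CPM at day 1, 6.95 CPM at day 3 and 0.936 CPM at day 5. Ranked by Spearman's rho instead, 1 of the 5 genes of AXIN2 (OAT) and 0 of the 5 of the mean stayed among the top 5. Without day 11 replicates 1 and 2, 4 of the 5 genes of AXIN2 (all but NKX1-2) and 4 of the 5 of the mean (all but BLOC1S6) stayed.

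The rest of the pathway is given over the same steps. Of all genes, 3.86% were called higher and 9.66% lower at day 1, 11.0% and 6.80% at day 3, and 5.75% and 4.34% at day 5. Of 10 other genes known as beta-catenin targets, 8 were called higher and 0 lower at day 1, 2 higher and 7 lower at day 3, and 0 higher and 6 lower at day 5. TBXT, which is also the streak marker above, had 0.327 ± 0.136, 311 ± 51.7, 19.5 ± 2.11 and 0.257 ± 0.169 CPM at days 0, 1, 3 and 5 (SD, n = 3, 3, 3 and 5). CDX1, a homeobox gene, had 0.0899 ± 0.0384 CPM at day 0 and 103 ± 33.1 CPM at day 1 (SD, n = 3 each). MSX1 and MSX2, homeobox genes of mesoderm, were the 2 called higher at day 3, at 50.8 ± 6.60 and 57.0 ± 11.8 CPM. The median log2 fold change of this list was 3.68 at day 1, -1.63 at day 3 and -1.15 at day 5.

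Of 18 Wnt ligand genes tested, 5 were called higher and 0 lower at day 1, 5 higher and 2 lower at day 3, and 2 higher and 6 lower at day 5. The 2 of 18 lower at day 3 lie near the 6.80% of all genes. WNT5B had 1.44 ± 0.116 CPM at day 0, 90.6 ± 25.0 CPM at day 1 and 13.6 ± 6.69 CPM at day 3 (SD, n = 3 each). WNT5A rose from 7.02 ± 1.02 CPM at day 1 to 204 ± 10.6 CPM at day 3 (SD, n = 3 each). WNT8A fell from 75.0 ± 6.70 CPM at day 3 to 0.823 ± 0.230 CPM at day 5 (SD, n = 3 and 5), a log2 fold change of -6.50 (edgeR adjusted p = 2.7e-12). WLS, which carries Wnt ligands to the cell surface, rose from 7.93 ± 0.602 CPM at day 0 to 119.9 ± 11.2 CPM at day 1 (SD, n = 3 each; edgeR adjusted p = 4.3e-14), and PORCN, the target of IWP2, was not called at any of the 3 steps.

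Of 12 Frizzled and LRP receptor genes, 2 were called higher and 2 lower at day 1, 4 higher and 1 lower at day 3, and 2 higher and 1 lower at day 5. The 1 of 12 called lower at day 3 and at day 5 lies near the 6.80% and 4.34% of all genes. FZD10 rose from 0.485 ± 0.0614 CPM at day 0 to 25.6 ± 4.06 CPM at day 1, and FZD5 fell from 167 ± 7.92 to 21.3 ± 6.15 CPM (SD, n = 3 each). Of 6 genes for R-spondins and their LGR receptors other than LGR5, LGR4 was the 1 called lower at day 1 and the 1 called higher at day 3, and RSPO2, RSPO4 and LGR4 were called higher at day 5. Of 10 genes for TCF factors and their cofactors, 2 were called higher and 2 lower at day 1, 4 higher and 1 lower at day 3, and 0 higher and 1 lower at day 5.

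Of 12 genes for the destruction complex, dishevelled and beta-catenin, which hold the targets of CHIR99021, 0 were called higher and 1 lower at day 1 by edgeR, and 0 either way at day 3 or day 5. The 1 was APC2, at 6.73 ± 0.402 CPM at day 0 and 1.14 ± 0.572 CPM at day 1 (SD, n = 3 each; log2 fold change -2.55, edgeR adjusted p = 0.011). Of 13 other secreted antagonists and their receptors, 2 were called higher and 3 lower at day 1, 4 higher and 3 lower at day 3, and 2 higher and 4 lower at day 5. SFRP1, which binds Wnt ligands outside the cell, fell from 281 ± 19.1 CPM at day 0 to 19.0 ± 7.83 CPM at day 1 and was at 358 ± 74.8 CPM at day 3 (SD, n = 3 each; log2 fold changes -3.89 and 4.23, edgeR adjusted p = 2.5e-10 and 1.9e-11). Its course over these steps was opposite in sign to those of DKK1 and DKK4. CER1, a secreted antagonist made by early endoderm, fell from 29.3 ± 9.81 CPM at day 3 to 0.277 ± 0.117 CPM at day 5 (SD, n = 3 and 5; log2 fold change -6.71, edgeR adjusted p = 4.7e-08).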

How the data were processed

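RNA of 44 wells was made into stranded total-RNA libraries and read as paired ends, per the labels' protocols. The submitters' processing notes name cutadapt, STAR 2.5.2b, RSEM 1.2.31 and hg38; the annotation and the use of strand in counting are not given in the sources used here. The authors deposited estimated counts per gene, of which 93.8% were whole numbers, and TPM, scaled by transcript length to the same sum in every library. They also deposited a table with the RNA integrity score and the sequencing lane of each library.

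Symbols and coordinates came from GENCODE release 29, in which 56769 of 60499 identifiers were found. Estimated counts were rounded. Genes were filtered with filterByExpr, libraries scaled by TMM, and 1 mean per group fitted to all 44 libraries with the quasi-likelihood test of edgeR 4.0.16 (R 4.3.3), over 15 comparisons. Adjusted p values are Benjamini-Hochberg over all 22955 genes. Alternatives were RLE scaling, 2 other filters, a replicate block, the lane as a covariate, a fit on the compared groups alone, limma 3.58.1 on log2(TPM + 1) and log2(TPM + 0.1), DESeq2 1.42.0, leaving out each well, and, added after seeing the data, leaving out day 11 replicates 1 and 2. Floors and depth cover counting error only.

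The 10 genes and all lists were chosen with earlier results of these data known. Beside the 10 genes, the naming rule takes, per pathway list and treatment step, up to 2 called genes at either end of the fold changes, direct paralogues of the 10, and the 5 genes of most similar profile. The labels call the wells biological replicates, and p values measure the spread between wells of 1 line.

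Replicate numbers recur between groups. Day 9 against day 7 was the 1 comparison with at least 3 pairs in which every same-numbered pair correlated over 0.1 in its deviations from the group means (5 pairs, 0.108 to 0.728). In 64 pairs of wells of the same group, no 2 libraries agreed within sampling noise (lowest chi-square per degree of freedom 5.95). On simulated counts for day 1 against day 0 (22138 genes, 200 changed), the fit called 41% of 2-fold and 82% of 4-fold changes and 2 unchanged genes. A 2-fold change lies right at the fold required for a call, and 54% of these had an edgeR adjusted p under 0.05. The changed genes were drawn from those with a mean over 1 CPM at day 0. The rates thus do not cover levels such as those of LGR5 and DKK4 at day 0 (0.426 and 0.0111 CPM). The real step also had more calls, 3102, than the 200 genes changed here.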

Additional observations from a re-analysis of the deposited data

Results flagged for a closer look

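In the 4 groups of 5 wells, the lowest and the highest well of each of the 10 genes were compared with the rest, which gave 40 tests. A well was singled out when its gap to the nearest other well exceeded Dixon's limit for the range of the group, which chance alone does in about 1 of 20 groups. This was so in 4 of 40 cases, 2 of them in DKK4 and 2 in LGR5. The rate of 1 in 20 does not hold for DKK4, which had 0 counts in many of these wells. With 4 wells at 0, any other value in the fifth well is singled out.

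DKK4 had 0.0798 CPM in day 5 replicate 2 and 0 in the other 4 wells, and 0.277 CPM in day 11 replicate 2 against 0 to 0.0445 CPM in the others. LGR5 had 54.6 CPM in day 5 replicate 4 against 28.8 to 35.8 CPM in the others, and 2.24 CPM in day 11 replicate 1 against 1.48 to 1.66 CPM in the others. Day 11 replicates 1 and 2 are the wells of that day with high endoderm and liver markers. Day 5 replicate 4 was also the highest of the 5 wells for LEF1, at 68.2 CPM against 33.4 to 51.7 CPM. Without it the fall of LEF1 from day 5 to day 7 was -0.98, just under the fold required for a call (edgeR adjusted p = 0.020).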

How the results depend on the processing

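Over the 15 comparisons, 2242 of 2465 recomputed values kept their sign and their side of the threshold. A further 147 changed sign without being called in either fit, 50 lost a call, 26 gained one and 0 called values changed sign.

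The number of the 10 genes called moved as follows. Limma on log2(TPM + 1) called 0 from pluripotent to day 0 (main count 3), 0 from day 9 to day 11 (1), 1 from day 30 to day 90 (2) and 3 between day 9 and day 90 (6). Limma on log2(TPM + 0.1) called 1 from pluripotent to day 0 and 0 from day 9 to day 11. For day 30 to day 90, the lane as a covariate left 1, a fit on the compared groups alone 0, and DESeq2 called 4. DESeq2 called 2 from day 20 to day 30 (0). Leaving out day 11 replicates 1 and 2 gave 1 from day 11 to day 14 (0).

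Leaving out each well in turn gave 8 to 9 from day 0 to day 1, 6 to 7 from day 1 to day 3, 6 to 7 from day 3 to day 5, 0 to 1 from day 14 to day 20, 0 to 3 from day 20 to day 30, and for the last step to day 90 the count was 1 to 3. Without day 20 replicate 3, day 14 to day 20 gave 1 and day 20 to day 30 gave 2. Without day 30 replicate 3, day 20 to day 30 gave 3 and day 30 to day 90 gave 1.

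With the replicate number as a block, the 10 genes gave 9 calls from day 0 to day 1, 7 from day 1 to day 3, 7 for the step to day 5 and 0 for the step to day 9. The block ended 1 call, that of NOTUM from day 0 to day 5 (1.15, edgeR adjusted p = 0.056), and changed no other call of the 10 genes. Over all genes it gave 360 calls from day 7 to day 9 (293), 0 from day 11 to day 14 (160) and 68 for the step to day 20 (11). For day 0 to day 1, same-numbered wells correlated by 0.01 to 0.14 in their deviations, and there they are taken to share only a number. The 2 same-numbered pairs correlated by 0.271 to 0.326 from day 11 to day 14 and by 0.372 to 0.461 for the step to day 20. Whether those wells share more than a number was not tested. The block is not given for day 30 to day 90, where 0 numbers are shared.

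Counts over all genes also moved. Limma on log2(TPM + 1) called 974 from day 0 to day 1 (3102), 1717 for the step to day 3 (4093) and 1050 for the step to day 5 (2317). From pluripotent to day 0 the alternatives ran from 45 to 1592 (669). The ranges over alternatives other than leaving out 1 well were 260 to 991 (838) at day 7, 28 to 497 (293) at day 9, 12 to 862 (375) at day 11, 0 to 2371 (160) at day 14, 0 to 68 (11) at day 20, 0 to 711 (463) at day 30 and 2 to 3550 (1168) at day 90, each against the sampled day before. Limma on log2(TPM + 1) called 1736 at day 3 (3803) and 2350 at day 5 (5669) against day 0, and 2787 at day 90 against day 9 (5485). The cause of these shifts was not tested. Depth limits DKK4 before day 1 and after day 3, and SP5 in pluripotent, day 30 and day 90 wells. It also limits LEF1 and DKK1 in pluripotent wells and LGR5 in pluripotent, day 0 and day 90 wells. There, some or all wells lie within a few multiples of the floor of 3 counts. In pluripotent wells SP5 had 0 to 4 counts and LEF1 2 to 7, and LGR5 had 2 to 7 at day 90.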
